A study of Mus musculus with 8 samples.

Results

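HTT ChIP-seq peaks of HttQ111/+ mouse cortex were compared between an animal group treated with an antisense oligonucleotide (ASO) against Htt and an untreated group. The comparison covered every peak of both lists on chromosomes 1 to 19, 86169 peaks of the 169524 that the 4 libraries of the series held there. Peaks were sorted by coordinates alone, with an overlap of 1 base or more counting as the same site. Of 46749 untreated peaks, 2223 overlapped an ASO peak (in both lists) and 44526 did not (untreated only). Of 39420 ASO peaks, 2222 overlapped an untreated peak and 37198 did not (ASO only).

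The study used the ASO experiment as a control of specificity, to see whether the ChIP signal of huntingtin (HTT) depends on HTT. HttQ111/+ mice carry 1 Htt allele in which mouse exon 1 was replaced by human HTT exon 1 with a lengthened CAG tract, on a C57BL/6J background, and their other allele is wild type. Treated mice, males aged 4 months, received 500 µg of a pan-huntingtin ASO into a cerebral ventricle on 1 side, and cortex of that side was taken 4 weeks later. The untreated mice had the same genotype and age, and no group received an injection without ASO, so the ASO and the injection itself cannot be told apart. Htt+/+ mice, wild type at both alleles, were treated or left untreated in the same way, and their lists were used to show which sites recurred and, beside the HttQ111/+ values, as the same comparison in the other genotype. The antibody was the anti-HTT antibody EPR5526, and the amount of HTT left after treatment was not analysed here. Each group was 1 library from pooled tissue, of 3 mice per the labels and fewer in the methods text. With no replicate library, no test was made, and ASO treatment cannot be told apart from other differences between 2 libraries. Percentages carry 95% Wilson intervals, which hold counting error alone and no variation between mice.

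HTT is a large scaffold protein that binds many partners, among them vesicle motors and transcriptional regulators, and a lengthened glutamine tract near its start causes Huntington's disease. An ASO of this kind pairs with the Htt transcript and leads to its cleavage by RNase H, so that less protein of either allele is made. In ChIP-seq, DNA that comes down with an antibody is sequenced, and a peak is a place where reads pile up above the input control. Transcription start sites of most widely used genes lie in CpG islands, stretches rich in C, G and the dinucleotide CG, while start sites of many tissue-restricted genes, such as those of olfactory receptors, lie in CpG-poor sequence.

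Peaks with a summit within 1 kb of a protein-coding transcript start (start-site peaks) had the lowest ASO to untreated ratio of any kind of place, and the sequences under them are shown first because their CG content differed between the classes. Each line below gives 251 bases of the plus strand of NCBIM37 (mm9) centred on a summit, with every CG dinucleotide in capitals. Shown are the 3 untreated-only peaks that had the highest lowest fold over input among the 12 named below, the strongest start-site peak of both HttQ111/+ lists, a start-site peak of all 4 lists, and the 2 strongest start-site peaks of the ASO-only class.
Pank1 (lost, chr19:34953324-34953574): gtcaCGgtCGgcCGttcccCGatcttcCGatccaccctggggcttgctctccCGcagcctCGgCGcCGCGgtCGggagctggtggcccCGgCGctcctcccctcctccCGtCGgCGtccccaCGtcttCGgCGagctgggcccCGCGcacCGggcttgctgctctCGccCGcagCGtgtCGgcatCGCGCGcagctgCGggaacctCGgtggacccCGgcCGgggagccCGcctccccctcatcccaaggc
Runx2 (lost, chr17:44872959-44873209): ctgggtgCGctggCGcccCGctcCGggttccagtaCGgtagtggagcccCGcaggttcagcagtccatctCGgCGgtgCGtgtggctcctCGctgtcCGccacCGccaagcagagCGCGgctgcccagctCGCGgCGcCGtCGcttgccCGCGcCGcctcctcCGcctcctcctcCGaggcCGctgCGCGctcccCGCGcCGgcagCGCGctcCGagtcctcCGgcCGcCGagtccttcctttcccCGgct
Svep1 (lost, chr4:58218911-58219161): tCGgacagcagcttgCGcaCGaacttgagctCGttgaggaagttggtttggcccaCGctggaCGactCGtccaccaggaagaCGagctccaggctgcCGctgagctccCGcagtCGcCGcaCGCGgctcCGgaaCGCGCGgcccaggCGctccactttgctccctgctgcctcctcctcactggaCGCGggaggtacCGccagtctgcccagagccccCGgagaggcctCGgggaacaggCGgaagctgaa
Tmem50a (kept, chr4:134470525-134470775): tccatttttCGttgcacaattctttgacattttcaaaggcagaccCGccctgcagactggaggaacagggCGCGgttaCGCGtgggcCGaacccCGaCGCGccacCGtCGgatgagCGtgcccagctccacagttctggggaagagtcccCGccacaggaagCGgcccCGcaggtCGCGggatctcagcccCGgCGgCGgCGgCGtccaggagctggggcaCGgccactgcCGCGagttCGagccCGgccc
Fbln1 (in all 4 lists, chr15:85036354-85036604): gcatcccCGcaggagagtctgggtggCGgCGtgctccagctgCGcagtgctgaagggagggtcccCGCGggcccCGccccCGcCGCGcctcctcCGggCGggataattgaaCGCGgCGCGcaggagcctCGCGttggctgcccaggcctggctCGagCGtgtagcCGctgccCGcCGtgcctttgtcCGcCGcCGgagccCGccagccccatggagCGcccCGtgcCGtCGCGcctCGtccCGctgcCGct
Chrna9 (ASO only, chr5:66326038-66326288): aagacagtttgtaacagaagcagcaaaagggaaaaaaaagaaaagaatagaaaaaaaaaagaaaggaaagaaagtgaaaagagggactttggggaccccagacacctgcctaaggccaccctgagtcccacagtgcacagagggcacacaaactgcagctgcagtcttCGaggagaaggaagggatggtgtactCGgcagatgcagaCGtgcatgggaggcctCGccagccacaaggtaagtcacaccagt
Thg1l (ASO only, chr11:45767615-45767865): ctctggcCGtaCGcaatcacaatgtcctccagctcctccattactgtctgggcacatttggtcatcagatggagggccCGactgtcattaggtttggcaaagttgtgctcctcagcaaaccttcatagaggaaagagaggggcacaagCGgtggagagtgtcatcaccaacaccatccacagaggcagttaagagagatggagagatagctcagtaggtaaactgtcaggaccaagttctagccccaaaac
The windows at Pank1, Runx2 and Svep1 held 34, 37 and 25 CG dinucleotides and were 76.1%, 75.7% and 67.7% G and C. Those at Tmem50a and Fbln1, where the peak was in both lists, held 28 and 35. The ASO-only windows at Chrna9 and Thg1l held 4 each and were 49.4% and 51.0% G and C. Over the whole classes, the median window had 25 CG dinucleotides at the 4338 untreated-only start-site peaks, 26 at the 298 start-site peaks in both lists and 5 at the 840 ASO-only start-site peaks. The windows centred on all 43968 protein-coding start positions had a median of 13, and tiles of the same length spaced evenly along the chromosomes had 1.

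Motifs were counted in these windows on both strands. GGGCGG, the GC box bound by Sp1-family factors, stood in 49.3% (47.8% to 50.8%) of untreated-only and 47.7% (42.0% to 53.3%) of shared start-site windows, against 18.0% (15.5% to 20.7%) of ASO-only ones and 42.8% of all start positions. CCAAT, the box bound by NF-Y, stood in 13.3% of untreated-only, 12.1% of shared and 26.0% of ASO-only windows, beside 28.8% of all start positions and 35.0% of genome tiles. The run CAGCAGCAG was in 4.63% (4.05% to 5.30%), 5.37% (3.33% to 8.54%) and 3.81% (2.71% to 5.33%) of the same classes and in 2.61% of all start positions. For each of these motifs the intervals of untreated-only and shared start-site peaks overlapped. GC-rich words such as GGGCGG follow base composition, which differed between the classes.

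The depth behind these peaks was low. The files carried 3.63 input reads per kb in all 4 libraries, which share 1 merged control, and 1.10 ChIP reads per kb in the untreated and 1.36 in the ASO library of HttQ111/+, which would make the ASO library the deeper of the pair. The methods state that the ChIP libraries were reduced to a common size, so these recovered depths and the stated processing differ, and the reason is not known. A median peak had 3 reads at its summit in both. The narrowest peak, which is set by the fragment length assumed in peak calling, was 210 bp in the untreated and 287 bp in the ASO library, and its part in the results was not tested.

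Start-site peaks were common in the untreated list and scarce in the ASO list. Untreated-only peaks lay within 1 kb of a start in 9.74% of cases (9.47% to 10%) and shared peaks in 13.4% (12.1% to 14.9%). ASO-only peaks did so in 2.26% (2.11% to 2.41%), close to the 2.36% of chromosome bases that such windows cover. Counting whole lists, the untreated library had 4636 start-site peaks and the ASO library 1132, a ratio of 0.244. By chromosome this ratio ran from 0.187 to 0.291, and the start-site share of peaks was lower with ASO on 19 of 19 chromosomes. In Htt+/+ cortex the share was lower with ASO on 0 of 19, and the start-site ratio was 1.21.

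Peak numbers in other kinds of place changed less. The sites themselves were kept less often in introns and intergenic sequence than at start sites. Coding exons and start sites had overlapping intervals. Of untreated HttQ111/+ peaks, 6.43% (5.76% to 7.17%) were kept at start sites and 7.51% (6.46% to 8.72%) in coding exons. In introns 3.88% (3.58% to 4.20%) were kept, and in intergenic sequence 4.59% (4.32% to 4.87%). In the HttQ111/+ pair the ratio of ASO to untreated peaks was 0.421 in coding exons, 0.611 within 1 kb of gene ends, 0.881 in introns and 1.01 in intergenic sequence. ASO-only peaks were 56.6% intergenic (56.1% to 57.1%) and 33.5% intronic (33.0% to 33.9%), beside 56.8% and 35.0% of chromosome bases. Untreated-only peaks were 46.8% intergenic, and 4.34% lay in coding exons, which make up 0.947% of bases.

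**Figure D1:**
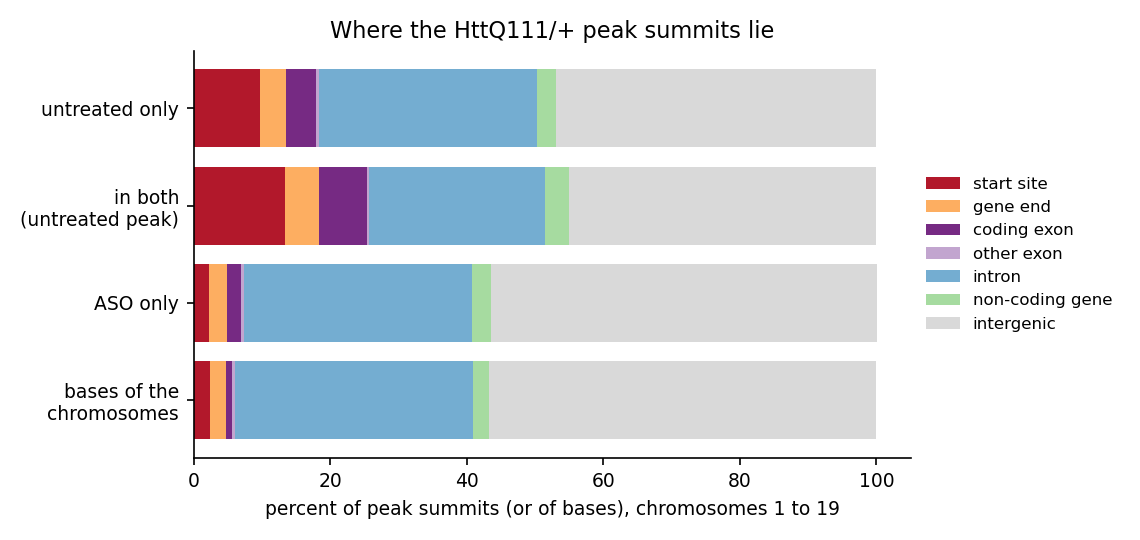
Horizontal stacked bars give the percent of HttQ111/+ peak summits (first 3 bars) and of chromosome 1 to 19 bases (last bar) in each kind of place, a start site being within 1 kb of a protein-coding start. The start-site part is 9.74% of untreated-only, 13.4% of shared and 2.26% of ASO-only peaks, and 2.36% of bases.

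Most start-site peaks sat just inside the gene. Untreated-only start-site summits had a median position 166 bp downstream of the start, 74.2% of them lay downstream (72.9% to 75.5%), and 59.1% lay in the first 500 bp. For shared start-site peaks the median was 221 bp and 80.2% lay downstream (75.3% to 84.3%). ASO-only start-site summits were spread more widely, with the middle 50% between -200 and 473 bp and 39.3% in the first 500 bp. The 100 bp bin from 100 to 200 bp held 734 untreated-only, 43 shared and 83 ASO-only peaks. A small rise at the start thus remained in the ASO library, which held 128 peaks in that bin against 777 in the untreated library.

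**Figure D2:**
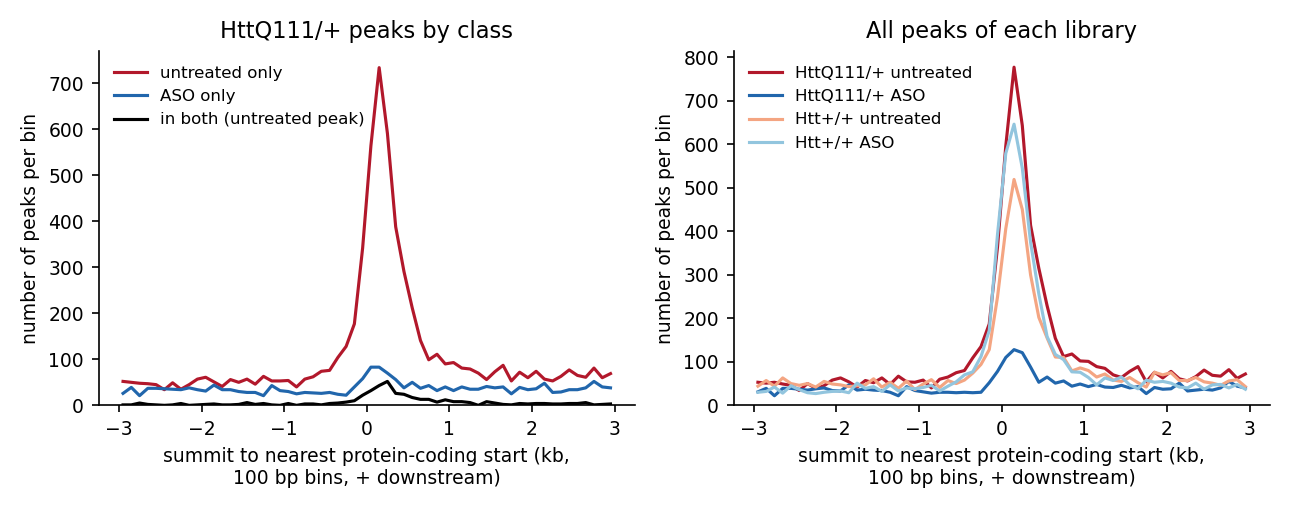
Lines give the number of peaks per 100 bp bin of the distance from the summit to the nearest protein-coding start, in kb, positive downstream, for HttQ111/+ peaks by class (left) and all peaks of each of the 4 libraries (right). The untreated-only line peaks at 734 in the bin from 100 to 200 bp, where the ASO-only line is at 83.

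The start-site share was lower with ASO in every bin of reads at the summit. Equal reads are not equal enrichment in the 2 libraries, which differed in recovered depth (1.10 untreated, 1.36 reads per kb with ASO). They also differed in narrowest peak width (210 and 287 bp). Among untreated HttQ111/+ peaks, 2.60% of those with 2 reads at the summit lay at a start site, 21.5% of those with 5 to 6 reads and 74.8% (71.7% to 77.7%) of those with 10 to 14 reads. In the ASO library the same shares were 1.37%, 6.51% and 62.0% (54.0% to 69.4%), so most of its peaks with 10 to 14 reads were still at start sites. They were few, 93 against 618 in the untreated library. With 15 or more reads the shares were 38.2% (30.3% to 46.7%) and 24.4% (14.2% to 38.7%), with overlapping intervals. Taking the 1000 peaks with the lowest p-values of each list, 44.8% (41.7% to 47.9%) of the untreated and 9.70% (8.02% to 11.7%) of the ASO peaks lay at a start site, beside 36.0% and 45.5% of the untreated and ASO lists of Htt+/+.

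Whether an untreated start-site peak was kept in the ASO list rose slowly with its reads. Of start-site peaks with 3 reads, 4.40% (3.06% to 6.29%) were kept, of those with 7 to 9 reads 6.39% (5.25% to 7.75%), and of those with 10 to 14 reads 8.90% (6.90% to 11.4%), and with 15 or more reads 10 of 50 were. In the Htt+/+ pair the same shares were 10.3%, 45.3% (42.2% to 48.3%) and 56.8% (52.2% to 61.2%), and 31 of 38 with 15 or more reads. Away from start sites, peaks with 3 reads were kept in 4.15% of cases in HttQ111/+ and 4.99% in Htt+/+, and peaks with 10 to 14 reads in 11.5% (7.88% to 16.6%) and 52.1% (43.9% to 60.2%). The gap between the genotypes was thus small for 3-read peaks away from start sites and wide for strong peaks in either place.

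**Figure D3:**
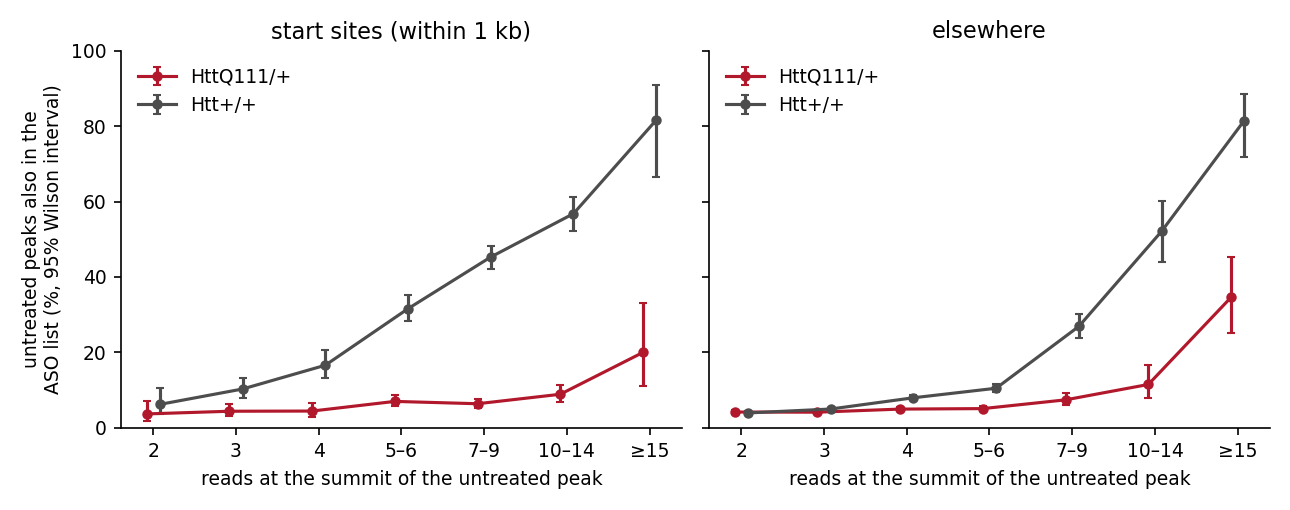
Points give the percent of untreated peaks that overlap an ASO peak of the same genotype, by reads at the untreated summit, with 95% Wilson intervals, at start sites (left) and elsewhere (right). At start sites with 10 to 14 reads the values are 8.90% in HttQ111/+ and 56.8% in Htt+/+.

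The few peaks with very high pileups were kept most often, and again less often than in Htt+/+. Among peaks with 20 or more reads, 40% (19.8% to 64.3%) were kept at start sites and 43.1% (31.2% to 55.9%) elsewhere in HttQ111/+, beside 85.7% (60.1% to 96.0%) and 84.7% (73.5% to 91.8%) in Htt+/+. Of these 73 untreated HttQ111/+ peaks, 31 (42.5%) were kept, 67 were in an Htt+/+ list and 59 in both. Their median fold over input was 3.19, against 4.87 for peaks of 10 to 19 reads, so the input was high there too. The study left artefact regions of the ENCODE blacklist out of its final peak set, and no such filter was applied here. How many of the 73 peaks lie in such regions was not tested, so they are not to be read as the strongest HTT sites. Of the 15 at start sites, 10 lay nearest to genes with Gm symbols, which are predicted gene models. The peak nearest to Gm10800 on chromosome 2 (98506760 to 98507476), named here for its read number, had 280 reads and a fold of 3.39 untreated and 337 reads and a fold of 2.77 with ASO.

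In the 298 start-site peaks of both lists, the median fold over input was 5.24 untreated and 3.71 with ASO, and the fold was lower with ASO in 77.9% (72.8% to 82.2%). Over the whole lists the median fold was 5.32 untreated and 4.41 with ASO, while median reads were 3 in both. Each library had its own scaling factor (3.3028 untreated, 2.6686 with ASO), so equal reads can give a lower fold with ASO. Folds of the pair therefore do not compare binding directly. Reads divided by the recovered depth of each library were lower with ASO in 62.1% of the 298 peaks, and median reads were 7 untreated and 8 with ASO. This division does not account for the assumed fragment length, which was longer with ASO (narrowest peak 287 bp against 210 bp). Away from start sites, the median fold was 5.45 untreated and 4.41 with ASO, and reads per depth were lower in 53.9%. Summits of a shared start-site pair lay a median of 74 bp apart.

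The Htt+/+ lists showed which untreated-only sites recurred. Of the 4338 untreated-only start-site peaks, 1874 (43.2%, 41.7% to 44.7%) overlapped a peak of at least 1 Htt+/+ list, 26.3% in the untreated and 30.1% in the ASO list, and 569 (13.1%) were in both. Of the 40188 untreated-only peaks elsewhere, 12.1% (11.8% to 12.5%) were in an Htt+/+ list and 1.49% in both. Of ASO-only peaks, lower shares recurred, 18.9% (16.4% to 21.7%) of the 840 at start sites and 7.66% (7.39% to 7.94%) of the 36358 elsewhere. Start-site peaks of both HttQ111/+ lists recurred most, with 70.8% (65.4% to 75.7%) in an Htt+/+ list.

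Sites found in every other library were missing from the ASO library of HttQ111/+ more often than from any other. There were 670 untreated start-site peaks that were also in both Htt+/+ lists, and 101 of them (15.1%, 12.6% to 18.0%) were kept. Away from start sites 740 untreated peaks were in both Htt+/+ lists, and 140 (18.9%, 16.3% to 21.9%) were kept, an overlapping interval. By gene, 946 genes had a start-site peak in the other 3 libraries, and 165 of these (17.4%, 15.2% to 20%) had one in HttQ111/+ ASO. The same count for HttQ111/+ untreated was 165 of 214 (77.1%, 71.0% to 82.2%), for Htt+/+ untreated 165 of 258 (64.0%, 57.9% to 69.6%) and for Htt+/+ ASO 165 of 247 (66.8%, 60.7% to 72.4%). Each count has the same 165 genes, those with a peak in every library. The counts for the other 3 libraries required a peak in HttQ111/+ ASO, which had the fewest genes with a start-site peak (1161). This order thus partly restates that number and is no separate result. Of the 781 genes missing in HttQ111/+ ASO, 567 had a CpG-rich start, and such genes were also most of those missing in HttQ111/+ untreated (31 of 49), Htt+/+ untreated (49 of 93) and Htt+/+ ASO (47 of 82).

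Counted by gene, 4080 of 21410 protein-coding genes had a start-site peak in the untreated library only (19.1%, here called lost), 464 in both (2.17%, kept) and 697 with ASO only (3.26%). In Htt+/+ cortex 1854 genes (8.66%) had one untreated only, 1433 (6.69%) in both and 2578 (12%) with ASO only. A gene counts as kept when each library has a peak in its start-site window, also when the peaks do not overlap, and a peak near 2 starts counts for both genes. Of genes with an untreated start-site peak in HttQ111/+, 10.2% (9.36% to 11.1%) also had one with ASO. Of the 16866 genes without, 4.13% (3.84% to 4.44%) did. In Htt+/+ these shares were 43.6% and 14.2%.

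The classes of start sites kept like shares of their untreated peaks but started from unlike levels. Genes that lost a start-site peak were thus 34.0% of CpG-high, 18.5% of intermediate and 8.71% of CpG-low genes. A start was classed as CpG-high when the 1 kb around it was over 55% G and C with a ratio of observed to expected CG over 0.75, as CpG-low when that ratio was under 0.48, and otherwise as intermediate. Of 6316 CpG-high genes, 38.0% had a start-site peak untreated and 6.67% with ASO. Of 6296 intermediate genes, 20.6% did untreated and 5.21% with ASO. Of 8798 CpG-low genes, 9.63% did untreated and 4.68% with ASO. The spread between classes was therefore far smaller with ASO. Kept shares of the genes with an untreated peak were 10.5% (9.34% to 11.8%), 10.1% (8.57% to 11.9%) and 9.56% (7.76% to 11.7%), with overlapping intervals. In Htt+/+ the same shares were 56.1%, 41.0% and 17.9%. Genes with an ASO-only start-site peak were 2.68% of CpG-high, 3.13% of intermediate and 3.76% of CpG-low genes.

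The untreated-only start-site peaks with the highest fold that were also in both Htt+/+ lists are named by a fixed rule. Svep1, a matrix protein with many adhesion domains, had a fold over input of 12.3 on 12 reads at chr4:58218911-58219201 in HttQ111/+ untreated cortex, 9.13 in Htt+/+ untreated and 8.02 in Htt+/+ ASO, and no peak in HttQ111/+ ASO. Pank1, a pantothenate kinase of the first step of coenzyme A synthesis, had 11.8 on 10 reads, 15.1 on 13 and 9.21 on 9 in the same order, at chr19:34953098-34953637. Runx2, a transcription factor of bone formation, had 9.47 on 11 reads, 8.65 on 11 and 11.0 on 15, at chr17:44872760-44873604. The presence in 3 lists and the absence from the ASO list of HttQ111/+ were the rule of choice and are no finding.
Bag2, an Hsp70 co-chaperone, had folds of 11.1, 2.95 and 6.12 in the same order of libraries, and Set, a histone chaperone and phosphatase inhibitor, had 10.2, 3.93 and 6.20. Rpl32, a protein of the large ribosomal subunit, had 11.0, 6.66 and 5.55. Kcnj12, an inward-rectifier potassium channel, had 9.91, 5.01 and 5.55, with its summit at -354 bp from the start. The others were Arhgef11, an exchange factor for RhoA, Strbp, an RNA-binding protein, Asap1, an activator of Arf GTPases, Lce1j, a protein of the cornified skin envelope, and Olfr270, an olfactory receptor. Their untreated folds ran from 9.45 at Asap1 to 15.6 at Olfr270. Olfr270 had another, non-overlapping ASO peak of fold 7.02 in its start-site window, so its gene counts as kept.

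Kept start-site peaks were led by Tmem50a, a membrane protein, at chr4:134470497-134470811, with a fold of 13.7 on 8 reads untreated and 9.75 on 8 reads with ASO, and 5.19 and 7.27 in the Htt+/+ lists. Fbln1, the matrix protein fibulin 1, had 6.86 on 8 reads and 6.92 on 10 reads in the HttQ111/+ pair and 5.09 and 6.94 in the Htt+/+ pair, all 4 within a narrow range. Nup35, a nuclear pore protein, had 13.4 untreated and 6.54 with ASO and no Htt+/+ peak. Nr3c2, the mineralocorticoid receptor, had 6.19 on 3 reads and 7.02 on 5 reads, also with no Htt+/+ peak. Vstm2l, Zfp386, a zinc finger protein, Olfr750 and Zdhhc22, a palmitoyltransferase, complete the 8, with ASO folds from 6.30 to 7.43. Lats2, a kinase of the Hippo pathway, Dnaja2, an Hsp40 co-chaperone, and Mrpl53, a mitochondrial ribosomal protein, were named after their values were seen as further start-site peaks in all 4 lists, with HttQ111/+ folds of 5.84 and 5.97, 5.84 and 5.65, and 6.53 and 5.49.

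The 8 ASO-only start-site peaks of highest fold are described next. Chrna9, a nicotinic receptor subunit, had a fold of 9.64 on 7 reads at chr5:66326013-66326435, Thg1l, which adds a guanosine to histidine tRNA, 9.04 on 7 reads, and Mapkapk5, a protein kinase, 7.61 on 6 reads, each with no peak in the other 3 libraries. Bpifb2, Crispld2 and Mynn, a zinc finger protein, likewise had a peak in the ASO library alone, with folds of 7.45, 7.39 and 7.23. Eif2b3, a subunit of the exchange factor eIF2B, had 8.34 on 9 reads and, in Htt+/+ ASO, 9.31 on 7 reads, and its window was the most GC-rich of the 8, at 69.3%. Pcdha11, a clustered protocadherin, had 7.02 on 5 reads, and since other peaks lay in its start-site window in the other 3 libraries (3.8, 3.56 and 3.31), its gene counts as kept.

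**Figure D4:**
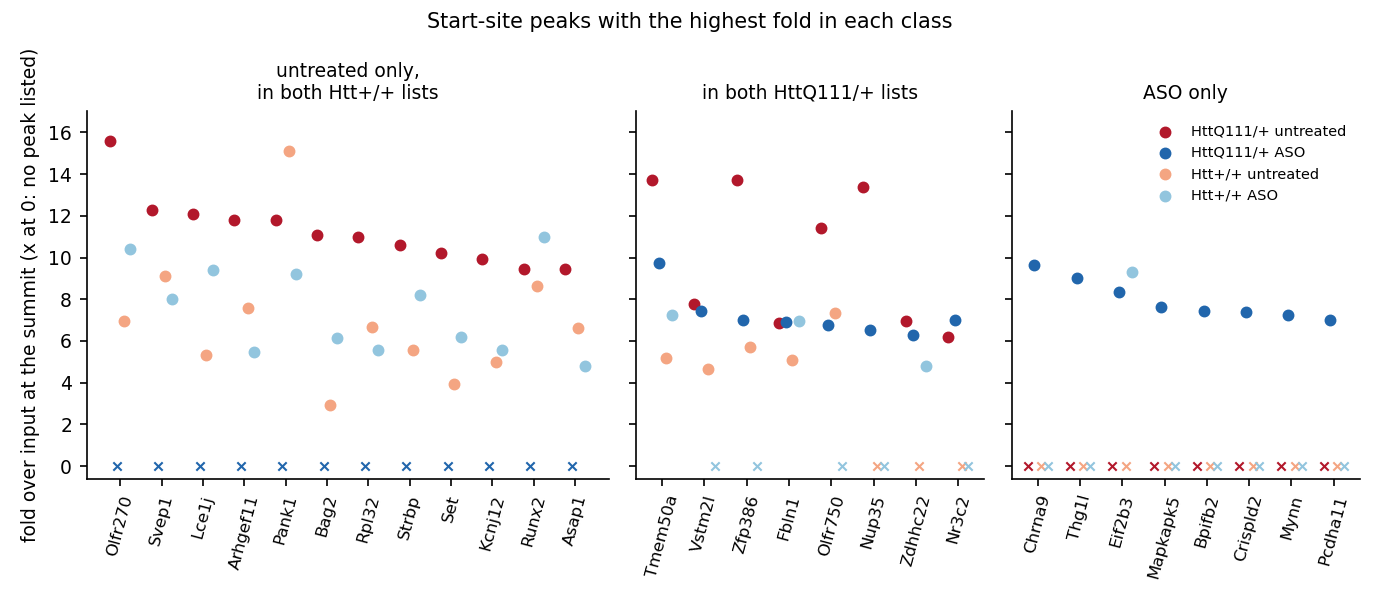
Points give the fold over input at the summit in each of the 4 libraries for the start-site peaks named by rule in the 3 classes, and a cross at 0 marks a library with no overlapping peak. In the left panel the 3 other libraries have a point at each of the 12 genes and HttQ111/+ ASO has none, while in the right panel most ASO-only peaks, such as Chrna9 at 9.64, stand alone.

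Over all places, the 3 untreated-only peaks of highest fold were that at Olfr270 and a pair of intergenic ones, 28167 bp from the start of Vmn1r200, a vomeronasal receptor (fold 19.3 on 10 reads), and at -179808 bp from the start of Hs3st5, a heparan sulfate sulfotransferase (15.6 on 8 reads). The strongest ASO-only peaks were intergenic near Defb29 (12.2 on 9 reads) and Dagla, the diacylglycerol lipase of endocannabinoid synthesis (9.75 on 8 reads), and in an intron of Spock1 (9.64 on 7 reads). A peak at -63509 bp from the start of Lphn2, an adhesion receptor, stood in all 4 lists, with 9.14 untreated and 11.4 with ASO in HttQ111/+.

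Gene lists fixed by symbol show which functional groups lost start-site peaks. Of 30 lists with 20 or more members, 29 had fewer members with a start-site peak in the ASO than in the untreated library of HttQ111/+, and in Htt+/+ 5 did. These counts are to be read against all protein-coding genes, of which 21.2% had an untreated and 5.42% an ASO start-site peak. No test of any list was made, and the lists were not matched to all genes by CpG class or number of starts. The fold and reads of a list member are those of the highest-fold peak in its start-site window, taken separately in each library. Values of a kept member therefore need not belong to the same site.

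Several lists of neuronal signalling genes stood above all genes in the untreated library. So did CpG-high genes, at 38.0%, and genes with 4 or more start positions, at 32.7%. Whether the levels of the lists follow their start-site type was not tested, so they are not shown to be a trait of function. Glutamate receptors carry fast and modulatory excitatory signals. Of 26 genes listed by symbol as glutamate receptor genes, 12 had an untreated start-site peak and 0 had one with ASO, which allows up to 25% of the 12 to be kept. The 12 include Grid2ip, which encodes a receptor-interacting protein and not a receptor. Among the 12, Grin1, the obligatory NMDA receptor subunit, had a fold of 5.20 on 6 reads untreated, 5.20 and 8.22 in the Htt+/+ lists and no ASO peak. Grik5, a kainate receptor subunit, had 6.94 and Grm8, a metabotropic receptor, 5.55, both in the untreated HttQ111/+ list alone. In Htt+/+ 7 of the 26 had a peak untreated and 11 with ASO.
Of 94 potassium channel genes, 36 (38.3%) had an untreated and 6 (6.38%) an ASO peak, with 4 kept. Kcnk9, a leak channel, had 8.13 on 12 reads untreated and none elsewhere, while Kcnn2, a calcium-activated channel, was kept with 6.16 on 9 reads and 4.70 on 12 reads. Of 53 synaptic adhesion and scaffold genes, 18 had an untreated and 2 an ASO peak, with 0 kept, which allows up to 16.7% of the 18. Nlgn2, a neuroligin of inhibitory synapses, had 8.20 and Dlgap3, a postsynaptic scaffold, 7.79, and each had a peak in both Htt+/+ lists and none with ASO in HttQ111/+. Voltage-gated calcium and sodium channel genes had 12 of 40 members with an untreated peak (30%) and 6 with an ASO peak (15%), above all genes in both libraries, and 4 were kept, among them Cacna2d1, an auxiliary calcium channel subunit, at 6.75 on 14 reads untreated and 2.46 on 7 with ASO. Of 18 GABA receptor genes only 2 had an untreated peak and 1 had an ASO peak.

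Spiny projection neuron identity genes, markers of the striatal neurons most affected in Huntington's disease, had 8 of 21 members with an untreated start-site peak and 0 with ASO, which allows up to 37.5% of the 8 to be kept. In Htt+/+ there were 5 untreated and 8 with ASO. The tissue was cortex, where several of these genes are also expressed. Rasgrp2, a Rap activator, had 7.47 on 11 reads, Rasd2, a striatal small GTPase, 6.61 on 8 in untreated HttQ111/+ cortex. Pde10a, the phosphodiesterase of these neurons, had 6.17 on 4 reads untreated, no ASO peak, and 2.92 and 5.61 in the Htt+/+ lists. Ppp1r1b, which encodes DARPP-32, had 2.60 on 6 reads untreated, no ASO peak, and in Htt+/+ a peak with ASO alone (3.09 on 9 reads). Rgs9 had no start-site peak in any library, and Sox11 and Foxp2 had none in HttQ111/+. Htt itself (chromosome 5, 35104393 to 35255183, plus strand) had none in HttQ111/+ and 1 in Htt+/+ untreated, at a fold of 2.45.

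Developmental regulators had many untreated start-site peaks, and were kept in small numbers that are to be read against the 10.2% kept over all genes. Of 114 homeobox genes outside the Hox clusters, counted by gene identifier, 47 had one untreated and 6 with ASO, with 5 kept. Pou3f1, a POU factor, had 9.12 on 10 reads untreated, peaks in both Htt+/+ lists and none with ASO. Pou3f3, its relative in upper-layer cortical neurons, was kept at 8.51 on 10 reads and 4.47 on 8. Of 29 Wnt and frizzled genes, the ligands and receptors of Wnt signalling, 14 had an untreated and 4 an ASO peak, and Wnt1, Wnt7b and Wnt11 were the 3 kept. Wnt7b had 3.99 on 13 reads untreated and 3.96 on 10 with ASO. Wnt10b had 5.67 on 10 reads untreated, 4.29 and 4.13 in the Htt+/+ lists and no ASO peak in HttQ111/+, and the receptor gene Fzd6 had 6.86 on 8 reads untreated and none with ASO. Of 25 Polycomb genes, whose products repress developmental genes, 9 had an untreated and 3 an ASO peak, with Aebp2 kept (5.32 and 4.41), while Eed, a core subunit of the H3K27 methyltransferase complex, had 6.61 untreated and no ASO peak. Of 40 Hox cluster genes 12 had an untreated and 3 an ASO peak.

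Genes with general functions showed the same direction. Of 55 genes listed by symbol as translation initiation factors, 18 had an untreated and 5 (9.09%) an ASO peak, with 0 kept. This 0 allows up to 16.7% of the 18 to be kept, so it does not set the list apart from the 10.2% of all genes. The list also holds genes that are not initiation factors themselves, such as Eif2ak3, a kinase, and Eif2c2, so its counts are not those of initiation factors alone. Eif4g2 had 7.27 on 13 reads untreated, 4.56 and 4.21 in Htt+/+ and no ASO peak in HttQ111/+. Of 78 ribosomal protein genes 17 had an untreated and 2 an ASO peak, and Rps6 was kept at 6.71 and 5.59. Of 23 histone demethylase and deacetylase genes 9 had an untreated and 1 an ASO peak. Of the 9, 0 were kept, which allows up to 33.3%, and among the 9 was Kdm1a, the H3K4 demethylase LSD1 (4.57 untreated). Of 37 kinesin genes, motors of microtubule transport, 11 had an untreated and 1 an ASO peak, and Kif5c, the neuronal heavy chain, had 6.77 on 12 reads untreated and none with ASO.
Of 27 HTT-interacting and Huntington's disease-related regulators, 8 had an untreated and 5 an ASO peak. Ncor1 and Rcor1, corepressor subunits, counted as kept, at 4.31 and 3.10 and at 4.57 and 3.19. Reads were equal in each pair (2 at Ncor1, 8 at Rcor1), which does not show that the peaks were the same site. In Htt+/+ the peaks of Ncor1 had 11 reads untreated and 10 with ASO. Taf4a, a TFIID subunit, had 6.53 and Sin3a, a corepressor scaffold, 5.65 untreated with no ASO peak, and Tbp, the TATA-binding protein, had an ASO peak alone of the pair (5.44).

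Receptor families that are silent outside sensory tissue had few start-site peaks in either library. Of 1106 olfactory receptor genes 40 (3.62%) had an untreated and 44 (3.98%) an ASO peak, with 8 kept, and in Htt+/+ 56 and 59. Of 330 vomeronasal receptor genes 7 and 6 did, with 0 kept, which allows up to 42.9% of the 7. The ASO level of all protein-coding genes, 5.42%, stood nearer to the olfactory receptor share than the untreated level of 21.2% did. Of 40 markers of 6 brain cell types, 8 had an untreated and 5 an ASO start-site peak, with 2 kept, Fezf2 of deep-layer neurons and Itgam of microglia, numbers too small to order the types. Start-site peaks do not measure expression, so these markers do not check the labelled tissue.

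**Figure D5:**
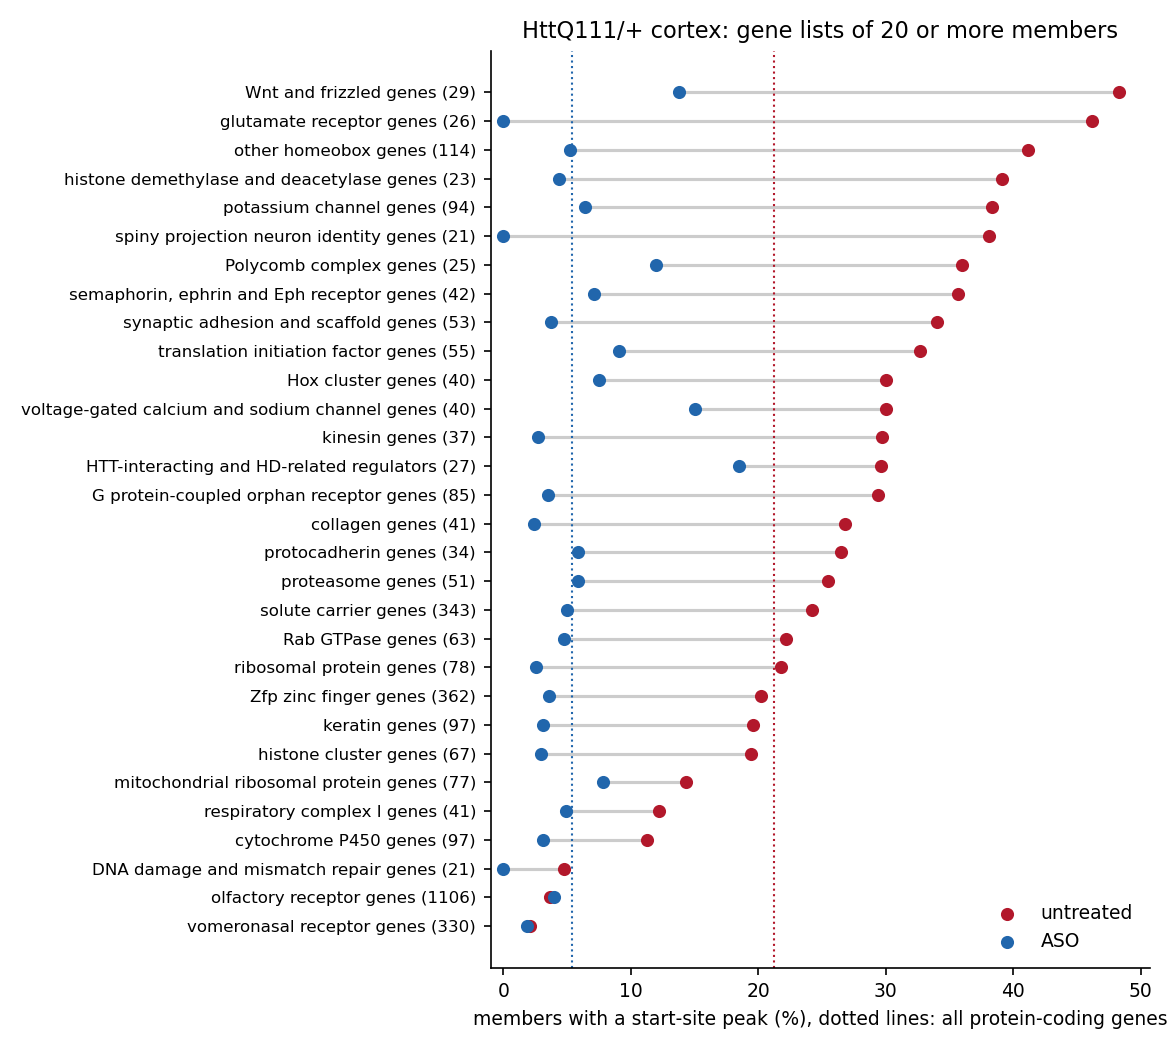
Points give the percent of members with a start-site peak in the untreated (red) and ASO (blue) library of HttQ111/+ cortex for the lists of 20 or more members, with the member number in brackets, and dotted lines mark all protein-coding genes (21.2% and 5.42%). Lists go by symbol and can hold related genes. The glutamate receptor list goes from 46.2% to 0%, while olfactory and vomeronasal receptor genes stay at the left in both.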

How the data were processed

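HTT ChIP-seq peak lists of 4 mouse cortex libraries, 1 per group, were used, and the 4 input samples were not analysed here. Per the labels and methods, the authors converted reads with bcl2fastq 2.17, aligned them with HISAT2, reduced the ChIP libraries to a common size and ran MACS2 on each of them against 1 control made of all inputs. The deposited lists give for each peak a fold over input at the summit, −log10 p-values and −log10 q-values, and an integer score, all made by the authors. The smallest deposited −log10 p was 3.00, so weaker sites are not in a list, and "no peak" means below that limit. The labels name mm9 and the methods mm10. Peaks on chromosome 1 reached base 197184321 of 197195432 in NCBIM37 (mm9), with 0 past any chromosome end, so the files were read as mm9 with GENCODE vM1 genes. Peaks in blacklisted artefact regions were not removed here.

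Reads at a summit were recovered as the whole number that, times 1 factor per library, explains both the fold and the Poisson p-value within 0.01 of the deposited −log10 p. Such a number was found for 100.00% of peaks in each library, and the step was tested on simulated data. Shares were computed with Wilson intervals. With 1 library a group, no test was made and no p-value computed. Places were ranked as start site (summit within 1 kb of a protein-coding transcript start), gene end, coding exon, other exon, intron, non-coding gene and intergenic. Named genes were 6 genes of the study, the 12 untreated-only start-site peaks of highest fold that are in both Htt+/+ lists, 8 kept (by the lower fold) and 8 ASO-only start-site peaks, the 3 strongest peaks of each class, and up to 4 members of a gene list by fold. Gm, Rik and similar clone names were passed over, and list members outside their list's top 4 that are named as kept, and genes named for reads or presence in 4 lists, were chosen after their values were seen. The members, gene lists and tests were chosen with earlier results of these data known. One list pattern (collagen) was corrected after the files were read. The 129 symbols with more than 1 gene identifier count once per identifier. Alternatives were q under 0.01, at least 5 reads, equal list lengths, 2 other overlap rules, chromosome X, and 2 other start-site rules. Python 3.11.15, pandas 2.3.3, NumPy 2.4.6, SciPy 1.17.1 and matplotlib 3.10.9 were used.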

Additional observations from a re-analysis of the deposited data

Results flagged for a closer look

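The start-site share of peaks moved in opposite directions with ASO in the 2 genotypes. It changed by -7.05 percentage points in HttQ111/+ cortex, from 9.92% to 2.87% of peaks, and by 2.42 points in Htt+/+ cortex, from 7.54% to 9.96%. The number of genes with a start-site peak gave an ASO to untreated ratio of 0.256 in HttQ111/+ and 1.22 in Htt+/+. Each genotype has 1 library a side, and the difference between them was not tested. The ChIP depth recovered from the lists, which differs from the equal sizes the methods state, was higher with ASO in both genotypes (1.36 against 1.10 reads per kb in HttQ111/+, 1.22 against 1.12 in Htt+/+). Other differences between the HttQ111/+ ASO library and the rest, such as its narrowest peak width of 287 bp against 210 to 230 bp, move with the result, and their part in it was not tested.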

How the results depend on the processing

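Of 72 alternative values, 35 stayed the same and 37 moved, and adding chromosome X moved none. A reversal could show only in the ratio of ASO-only to untreated-only peaks, and 0 were found. Shares and gene counts have no direction to reverse. The ratio stayed under 1, except with lists of equal length, which set it to 1. Shares and the ratio counted as the same when inside the interval of the reported value. Gene counts had a looser rule, under which 3072 lost genes with at least 5 reads, against 4080 reported, count as the same. For moved values the cause was not tested unless the construction gives it. With q under 0.01, the kept share of untreated peaks was 4.17%, the ratio of ASO-only to untreated-only peaks 0.698, the start-site share of untreated-only peaks 10.3%, and recurrence in an Htt+/+ list 13.7% of untreated-only and 6.70% of ASO-only peaks. With at least 5 reads, which leaves fewer peaks, untreated peaks were kept in 5.44% and ASO peaks shared in 9.55%, the ratio was 0.547, the start-site shares were 36.7% (untreated only), 7.92% (ASO only) and 47.7% (both), recurrence was 30% and 6.79%, and 294 genes were kept and 341 ASO only. With lists of equal length, both shared percentages were 4.99%, the ratio was 1 by construction and the untreated-only start-site share 10.5%. With a reciprocal overlap of 50%, the shared percentages were 2.64% and 3.13%, the start-site shares 2.44% (ASO only) and 16.3% (both), and recurrence 10.5% and 4.78%. With summits within 250 bp, the shared percentages were 4.34% and 5.15% and recurrence 14.4% and 7.18%. With start sites cut to 250 bp, a narrower window, the start-site shares were 4.95% (untreated only), 0.852% (ASO only) and 6.43% (both), and 2221 genes were lost, 133 kept and 327 ASO only. Counting any base within 1 kb gave 10.1% and 2.57%. No paired analysis was possible because the labels give the groups no replicate numbers and the peak lists hold no value where a library has no peak. With 1 library a group, none could be left out. Most peaks rest on 2 to 4 reads, so a site with no peak may hold reads below the calling limit, and presence or absence of a single peak is weakly determined.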
